A study of Homo sapiens with 6 samples.

Results

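The genes described here are 8 liver-enriched transcription factors, HNF4A, FOXA1, FOXA2, FOXA3, CEBPA, ONECUT1, PROX1 and GATA4. They were chosen by name, and all 8 had a row among the 16721 rows of the deposited table of read counts. RNA was sequenced from 3 sgControl libraries and 3 sgRFX6 libraries of cells labelled Hep3B, an established human cell line from a hepatocellular carcinoma. The sgControl cells are labelled WT and the sgRFX6 cells carry a CRISPR knockout of RFX6, a winged helix transcription factor known from pancreatic islets. All 3 sgRFX6 columns of counts are named sg3, taken here as 1 guide against RFX6. Guide and Cas9 came from 1 lentiviral vector that carries resistance to puromycin, and per the study's methods the knockout lines were each derived from a single cell. How many clones stand behind each group is not stated, and nothing says that the 3 libraries of a group came from separate cultures, so p-values measure only the spread between these libraries, which may be technical. Any difference between the groups cannot be told apart from a difference between clones or from an effect of this 1 guide.

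These factors act as a network in hepatocytes. FOXA1, FOXA2 and FOXA3 are paralogous forkhead proteins that bind closed chromatin early in endoderm and liver development, and GATA4 is a zinc finger factor that acts beside them. HNF4A, a nuclear receptor, and CEBPA, a basic leucine zipper protein, maintain the genes of the mature hepatocyte, while ONECUT1 and PROX1, both homeodomain proteins, act in the growth and migration of hepatoblasts and in the choice between hepatocyte and bile duct. HNF4A, the FOXA proteins and GATA4 also have long-known functions in the intestine and the pancreas.

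EdgeR's quasi-likelihood test called 0 of the 8 factors between sgRFX6 and sgControl cells at an adjusted p under 0.05, beside 3.74% of all tested genes. DESeq2 called FOXA1, beside 6.44% of its tested genes, and edgeR with a correction for GC content called FOXA1 and FOXA3, beside 10.7%. Limma-voom with sample quality weights called FOXA1, FOXA3 and PROX1 lower and CEBPA higher in sgRFX6 cells, beside 31.1%. FOXA1 and FOXA3 were furthest apart, with mean levels 2.13-fold and 1.82-fold lower in sgRFX6 cells, and every sgRFX6 library lay below every sgControl library for both. HNF4A had the same order of libraries with a small difference. Such an order, with sgRFX6 lower, was found for 11.2% of all tested genes, and groups apart in either direction for 23.1%. CEBPA, FOXA2, ONECUT1, PROX1 and GATA4 had groups that overlapped.

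Promoter sequences are shown for HNF4A, FOXA1 and FOXA3, the 3 factors whose groups did not overlap. Each is 300 bases from RefSeq on GRCh38.p14, running from 250 bases before to 50 bases after an annotated start, 5′ to 3′ on the gene's own strand. A search of both strands used the letters GCCATGG for the centre of an X-box, the site of the RFX family. It also used AGGTCA for a half-site of HNF4, TGTTTAC for FOXA, TTGCNNAA for C/EBP, ATCAAT for ONECUT and AGATAA for GATA factors. Capitals mark the matches, and in these 4 sequences no match overlaps another. HNF4A has an upstream start at chr20:44355449-44355748 and a downstream start, the one mainly used in adult liver, at chr20:44400989-44401288, both on the plus strand. The FOXA1 promoter is at chr14:37595200-37595499 on the minus strand and the FOXA3 promoter at chr19:45864076-45864375 on the plus strand.
HNF4A upstream start: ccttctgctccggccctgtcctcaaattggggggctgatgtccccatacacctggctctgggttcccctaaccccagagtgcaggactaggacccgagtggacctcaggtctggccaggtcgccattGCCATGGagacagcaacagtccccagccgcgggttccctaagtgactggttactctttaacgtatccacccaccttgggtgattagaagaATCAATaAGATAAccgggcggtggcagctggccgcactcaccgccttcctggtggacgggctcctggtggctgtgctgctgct
HNF4A downstream start: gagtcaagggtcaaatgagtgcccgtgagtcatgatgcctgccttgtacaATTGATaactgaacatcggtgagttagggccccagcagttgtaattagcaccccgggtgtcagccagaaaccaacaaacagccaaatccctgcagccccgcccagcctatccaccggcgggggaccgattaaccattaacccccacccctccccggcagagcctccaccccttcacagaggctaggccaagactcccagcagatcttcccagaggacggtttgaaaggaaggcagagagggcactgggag
FOXA1: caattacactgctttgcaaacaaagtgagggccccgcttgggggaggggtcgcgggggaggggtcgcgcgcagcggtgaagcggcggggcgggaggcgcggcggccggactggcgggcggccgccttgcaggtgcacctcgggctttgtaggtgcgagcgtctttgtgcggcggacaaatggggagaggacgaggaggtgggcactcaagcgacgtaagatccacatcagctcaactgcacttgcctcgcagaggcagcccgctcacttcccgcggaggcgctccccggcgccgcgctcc
FOXA3: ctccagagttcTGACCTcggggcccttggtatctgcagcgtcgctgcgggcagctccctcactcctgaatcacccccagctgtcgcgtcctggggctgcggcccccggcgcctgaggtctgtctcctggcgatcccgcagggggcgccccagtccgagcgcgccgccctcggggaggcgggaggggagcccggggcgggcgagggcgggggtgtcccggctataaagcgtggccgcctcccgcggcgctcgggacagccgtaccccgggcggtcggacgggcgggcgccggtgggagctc

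The upstream HNF4A promoter held the X-box letters at position -123 from the start, with an ONECUT match at -33 and a GATA match at -26. The X-box letters were set after this sequence had been read, and 5.21% of the 34943 RefSeq promoters of this length hold them. The downstream HNF4A promoter held an ONECUT match on the minus strand at -200. The FOXA3 promoter held 1 match to the HNF4 half-site, on the minus strand at -239. No match to any of the 6 motifs was held by the FOXA1 promoter. Of all promoters, 13.8% matched the HNF4 half-site, 3.42% FOXA, 10.5% C/EBP, 6.27% ONECUT and 10.4% GATA. The CEBPA promoter, also in this set, held no match, and the ONECUT1 promoter held the X-box letters 13 bases after the start, where they overlap with a match on the other strand. FOXA2, PROX1 and GATA4 were not searched. The counts are summed per gene and do not separate the 2 HNF4A starts.

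The label was checked against marker genes, and the data went against it in part. Levels are given as CPM, read counts scaled to library size, and levels of different genes are compared only as CPM per kilobase of annotated exon. Hep3B is known for secreting albumin and alpha-fetoprotein. ALB, which encodes albumin, averaged 20.2 CPM in sgControl libraries and ranked at percentile 52.5 of all tested genes per kilobase, and AFP, alpha-fetoprotein, averaged 2.03 CPM and ranked at percentile 12.5. TTR (0.482 CPM), which encodes transthyretin, APOA1 (1.07 CPM) of high-density lipoprotein and TF (2.17 CPM), transferrin, were low, at or below percentile 14.3. The annotated exons of TF cover 26199 bases, against 3377 for ALB, and the rank of TF depends on this length. SERPINA1 and APOB were at percentiles 26.9 and 45.5, and APOH (76.1 CPM), a plasma glycoprotein gene, was at percentile 94.0. The intestinal markers LGALS4 (571 CPM), a galectin, CDH17 (317 CPM), a cadherin, and VIL1 (453 CPM), the villin gene of the brush border, ranked at percentiles 98.9, 96.2 and 94.9. CDX2, the homeobox factor of the intestinal epithelium, averaged 32.5 CPM. The summed level per kilobase of 8 hepatocyte markers ran from 62.2 to 85.2 in sgControl and from 55.7 to 67.3 in sgRFX6 libraries, against 269 to 554 and 377 to 481 for the 6 intestinal markers with a row. Both patterns were present in all 6 libraries, so they do not separate the groups, and the cells are called here only by their label.

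**Figure D1:**
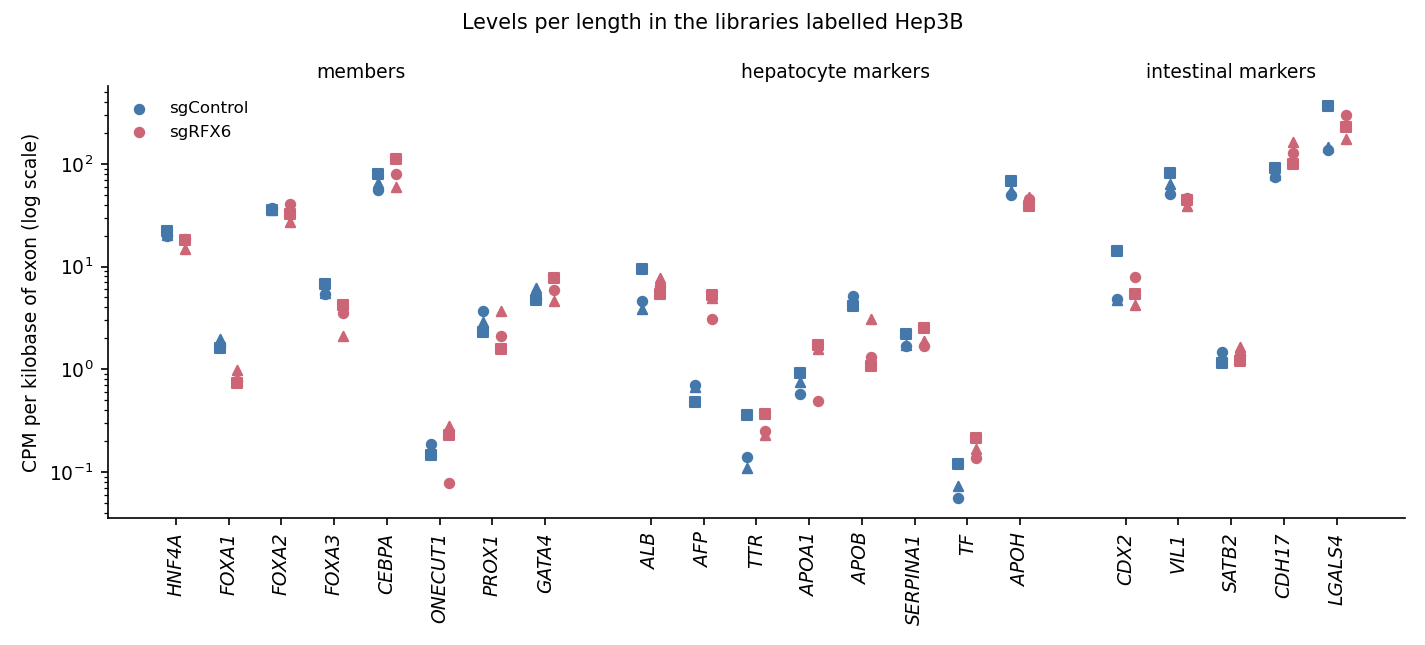
CPM per kilobase of exon (log scale) of the 8 transcription factors, 8 hepatocyte markers and 5 intestinal markers in each library, with sgControl in blue and sgRFX6 in red and circle, square and triangle for replicates 1, 2 and 3. CEBPA, FOXA2 and HNF4A lie above most hepatocyte markers in all libraries, and LGALS4, CDH17 and VIL1 lie above ALB and AFP.

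Facts of the libraries that touch the results are these. Library totals ran from 16730386 to 25070793 counts, and 3 counts, taken as the lowest level that can be told from 0, came to 0.122 to 0.189 CPM. Deviations of libraries from their group mean moved with the GC content of the genes in all but sgControl 3, with a Spearman correlation over 12207 genes of -0.565, 0.407 and 0.049 in sgControl 1, 2 and 3 and of 0.645, 0.72 and -0.848 in sgRFX6 1, 2 and 3. In a further fit (the GC correction), trends with GC content were removed from each library's deviations from the mean of all 6 libraries. Differences between the groups that move with GC content were therefore removed as well. Values of the GC correction are given for RFX6, HNF4A, FOXA1, FOXA2, FOXA3, CEBPA and PROX1. RFX6 itself, the targeted gene, at chr6:116877212-116932163 on the plus strand, measured 5.64, 5.83 and 7.34 CPM in sgControl and 3.43, 3.71 and 3.50 CPM in sgRFX6 libraries. All sgRFX6 libraries lay below all sgControl libraries. The log2 fold change (sgRFX6 minus sgControl throughout) was -0.82 with an SE of 0.26, and edgeR's adjusted p was 0.142. RFX6 was called with the GC correction (log2 fold change -0.85, edgeR adjusted p = 0.0486) and in limma-voom with sample quality weights (-0.96, adjusted p = 0.00274), and in none of the other 13 alternatives. Counts per gene do not show whether the remaining RFX6 RNA carries an edit.

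The factors covered a wide range of levels. Per kilobase, the order in sgControl libraries was CEBPA (66.3 ± 12.2 CPM per kilobase, SD, n = 3), FOXA2 (36.3 ± 0.783), HNF4A (20.7 ± 1.14), FOXA3 (5.94 ± 0.763), GATA4 (5.26 ± 0.805), PROX1 (2.97 ± 0.705), FOXA1 (1.76 ± 0.186) and ONECUT1 (0.164 ± 0.0211). FOXA3 and GATA4 overlapped between libraries, and every other pair of neighbours in this order was apart. The same order held in sgRFX6 libraries except for 1 exchange, GATA4 at 6.05 ± 1.58 above FOXA3 at 3.27 ± 1.07. There FOXA3 overlapped with PROX1 (2.44 ± 1.09). With the length of the longest transcript, GATA4 lay above FOXA3 in sgControl libraries as well (6.85 and 6.55 CPM per kilobase). CEBPA ranked at percentile 95 of tested genes in sgControl and 96.3 in sgRFX6 cells, FOXA2 at 89.6 and 88.2, and HNF4A at 81.2 and 77.1. FOXA3 ranked at percentile 52.2 and 37.2, GATA4 at 49.2 and 52.1, PROX1 at 35.7 and 31.1 and FOXA1 at 26.0 and 15.3. ONECUT1 was lowest, at 3.6 and 4.6.

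**Figure D2:**
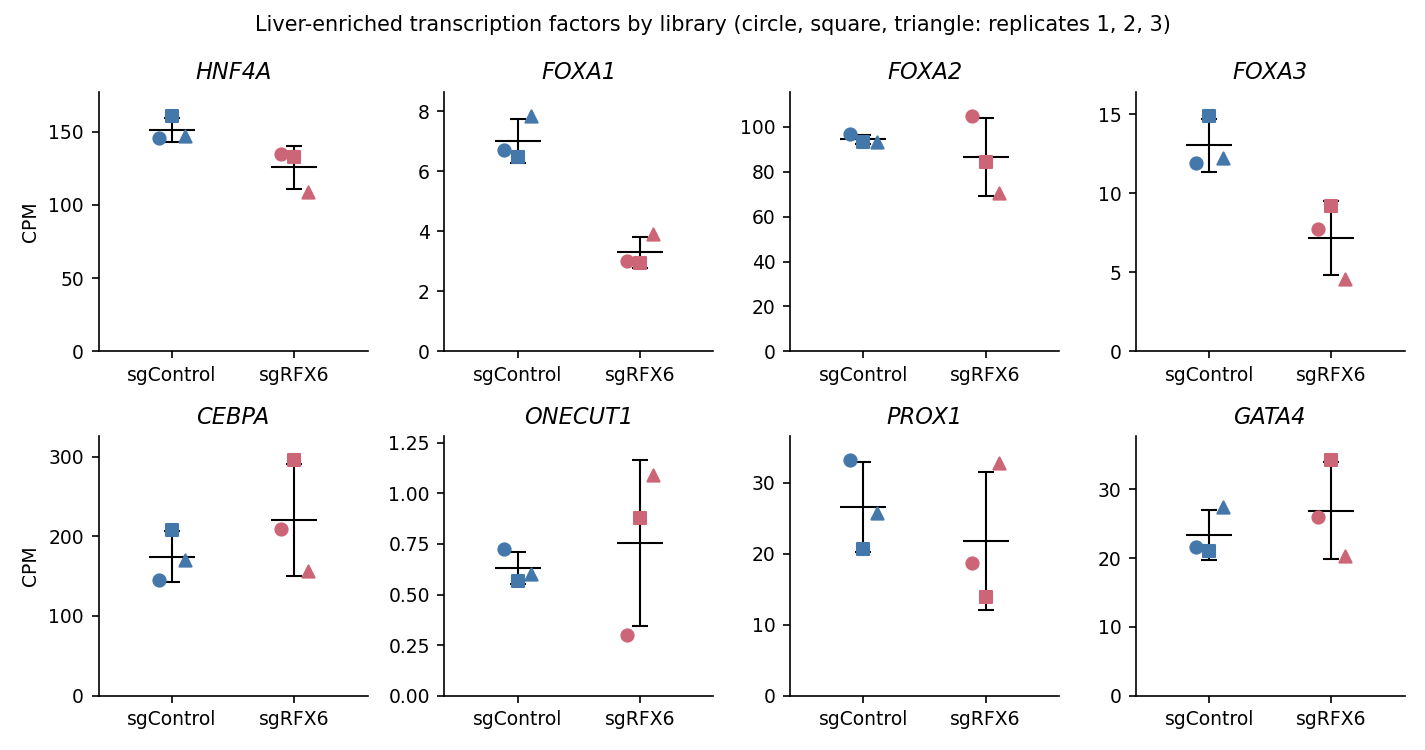
CPM of each of the 8 transcription factors by library, with sgControl in blue, sgRFX6 in red, circle, square and triangle for replicates 1, 2 and 3, a horizontal bar for the mean and error bars for the SD (n = 3). The sgRFX6 libraries lie below all sgControl libraries for HNF4A, FOXA1 and FOXA3, and the groups overlap for the other 5 factors.

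Of the forkhead factors, FOXA1 and FOXA3 had the largest differences of the 8 in edgeR and FOXA2 the smallest. FOXA1, at chr14:37589984-37596059 on the minus strand of GRCh38 in GENCODE release 29, measured 6.70, 6.48 and 7.86 CPM in sgControl libraries and 3.03, 2.95 and 3.91 CPM in sgRFX6 libraries. These were 139, 160 and 182 counts against 61, 47 and 86, so the highest sgRFX6 library was well below the lowest sgControl library. In RNA from a whole culture, fewer cells with a gene and less of its RNA per cell cannot be told apart. The log2 fold change of FOXA1 was -1.08 (SE 0.26, 95% interval -1.68 to -0.49), with an edgeR adjusted p of 0.0622, which missed the threshold of 0.05. With the GC correction the FOXA1 values were 7.44, 5.74 and 7.99 against 2.73, 2.67 and 4.81 CPM, groups still apart. The SD went from 0.74 to 1.17 CPM in sgControl and from 0.529 to 1.22 CPM in sgRFX6 libraries. The adjusted p was 0.0268 in edgeR with the GC correction, 0.00853 in DESeq2 and 0.0395 in edgeR without sgRFX6 replicate 3. FOXA1 had 0.292 in edgeR without sgControl replicate 3, the highest of 15 alternatives. Its fold change stayed between -1.29 and -0.96 in all of them.

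FOXA3, at chr19:45863989-45873797 on the plus strand, measured 11.9, 14.9 and 12.2 CPM in sgControl and 7.75, 9.18 and 4.59 CPM in sgRFX6 libraries. The groups did not overlap, and sgRFX6 replicate 3 was the lowest. The log2 fold change was -0.86 (SE 0.30, 95% interval -1.54 to -0.19), with an edgeR adjusted p of 0.182. With the GC correction, the FOXA3 values were 14.3, 10.9 and 12.4 against 6.46, 7.12 and 7.93 CPM, which brought the sgRFX6 libraries closer together. The corrected log2 fold change was -0.85 with an SE of 0.17 and an adjusted p of 0.0175 in edgeR. Without sgRFX6 replicate 3 the fold change was -0.62, the smallest of the 15 alternatives.

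FOXA2, at chr20:22581005-22585455 on the minus strand, was the most abundant of the 3 paralogs. It measured 96.7, 93.1 and 93.3 CPM in sgControl libraries and 105, 84.5 and 70.5 CPM in sgRFX6 libraries. With the GC correction the FOXA2 values were 114, 69.8 and 93.9 against 89.4, 68 and 116 CPM, and the SD of the sgControl group went from 2.04 to 22.2 CPM. Before the correction and after it, the groups overlapped. The uncorrected log2 fold change was -0.12 (SE 0.18, edgeR adjusted p = 0.845). Its sign turned in 2 of the alternatives, and a difference of this size was not detectable.

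Apart from a small constant added to each CPM, ratios of the FOXA paralogs within a library do not depend on how libraries are scaled. The log2 ratio of FOXA1 to FOXA2 was -3.83, -3.82 and -3.55 in sgControl and -5.07, -4.79 and -4.14 in sgRFX6 libraries. All sgRFX6 ratios were lower, with a difference of means of -0.93. The exact two-sided permutation test gave p = 0.1, the smallest that 3 against 3 libraries allow, and 0.15 after adjustment over the 3 ratios compared. The ratio of FOXA2 to FOXA3 was 3.01, 2.63 and 2.92 against 3.74, 3.19 and 3.92, higher in every sgRFX6 library, with a difference of 0.76 and the same exact permutation p of 0.1 (0.15 adjusted). FOXA1 against FOXA3 differed by -0.17 with overlapping groups (exact permutation p = 0.7). Of the summed level of the 3 paralogs per kilobase, FOXA2 took 80.9% to 83.9% in sgControl and 86.8% to 90.4% in sgRFX6 libraries. FOXA3 took 12.3% to 15.4% and then 6.94% to 11.2%, and FOXA1 took 3.68% to 4.55% and then 1.71% to 3.25%. The paralogs share a similar forkhead domain, and how reads that fit more than 1 of them were counted is not given in the sources used here.

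**Figure D3:**
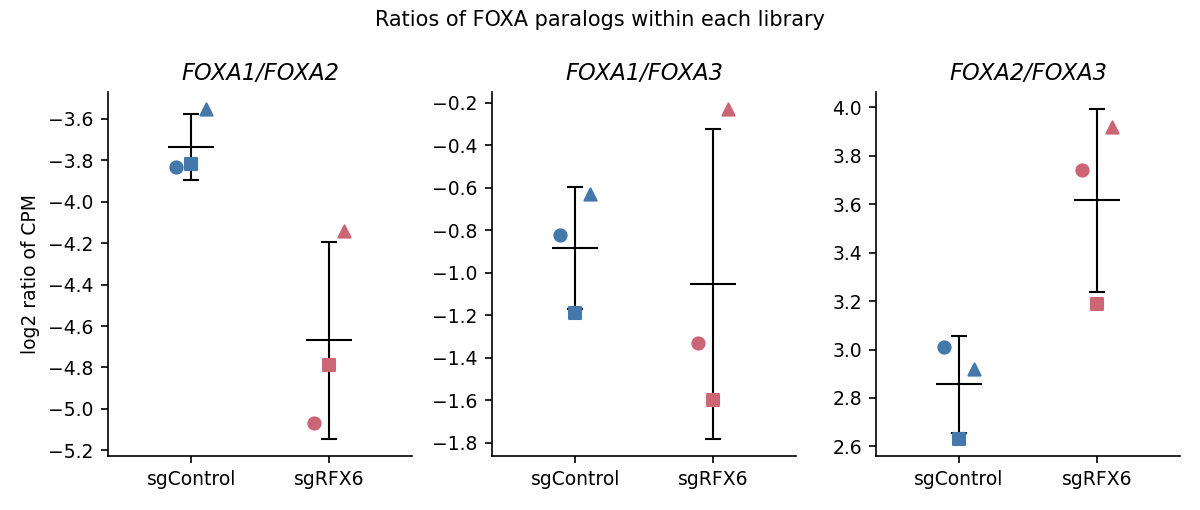
Log2 ratios of CPM between FOXA paralogs within each library, with sgControl in blue, sgRFX6 in red, circle, square and triangle for replicates 1, 2 and 3, a bar for the mean and error bars for the SD (n = 3); the vertical axes do not start at 0 and differ between panels. FOXA1 to FOXA2 is lower and FOXA2 to FOXA3 is higher in all 3 sgRFX6 libraries, and FOXA1 to FOXA3 overlaps.

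HNF4A, at chr20:44355700-44434596 on the plus strand with 9 annotated transcripts, measured 146, 161 and 147 CPM in sgControl and 135, 133 and 109 CPM in sgRFX6 libraries. The groups did not overlap, but the gap between them was small beside the spread within sgRFX6. The log2 fold change of HNF4A was -0.27 (SE 0.16, 95% interval -0.63 to 0.10), and the edgeR adjusted p was 0.494. With the GC correction the HNF4A groups overlapped, at 165, 137 and 148 against 120, 115 and 146 CPM. HNF4A was called in none of the 15 alternatives, where its adjusted p ran from 0.153 to 0.771.

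CEBPA, a gene with 1 exon at chr19:33299934-33302564 on the minus strand, measured 145, 208 and 170 CPM in sgControl and 209, 296 and 157 CPM in sgRFX6 libraries. Its highest and its lowest sgRFX6 library enclosed most of the sgControl values, and its log2 fold change was 0.34 (SE 0.25, edgeR adjusted p = 0.601). CEBPA has the highest GC content of the factors, 65.9%. With the GC correction, sgRFX6 replicate 3 went from the lowest CEBPA library of its group to the highest of all, at 286 CPM against 163 and 212 in the other sgRFX6 libraries, so the correction turned the order of the libraries. The SD of the sgRFX6 group was 70 CPM before and 61.6 CPM after it. Without sgRFX6 replicate 2 the fold change was 0.06, and without replicate 3 it was 0.54. Of the 15 alternatives, only limma-voom with sample quality weights called CEBPA (0.43, adjusted p = 0.0348).

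PROX1, at chr1:213983181-214041502 on the plus strand, has the lowest GC content of the factors, 40.7%, and the opposite pattern. It measured 33.2, 20.7 and 25.7 CPM in sgControl and 18.7, 13.9 and 32.7 CPM in sgRFX6 libraries. The sgRFX6 replicate 3 lay within the sgControl range and the other 2 lay below it. The log2 fold change of PROX1 was -0.28 (SE 0.34, edgeR adjusted p = 0.784). With the GC correction PROX1 measured 27.2, 25.8 and 28 against 22.8, 20.3 and 16.6 CPM, groups that no longer overlapped. In that fit 11.6% of all tested genes had groups apart with sgRFX6 lower, and 23.5% in either direction. The corrected log2 fold change of PROX1 was -0.39 (SE 0.17), which again missed the threshold (edgeR adjusted p = 0.189). Without sgRFX6 replicate 3 the PROX1 fold change was -0.70, and without sgRFX6 replicate 2 it was -0.05. PROX1 was called in 1 of the 15 alternatives, limma-voom with sample quality weights (-0.59, adjusted p = 0.022).

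GATA4, at chr8:11676959-11760002 on the plus strand, measured 21.6, 21.1 and 27.5 CPM in sgControl and 26.0, 34.3 and 20.3 CPM in sgRFX6 libraries. The groups overlapped, with a log2 fold change of 0.20 (SE 0.25, edgeR adjusted p = 0.799). ONECUT1, at chr15:52756989-52791078 on the minus strand, was counted 15, 14 and 14 times in sgControl libraries and 6, 14 and 24 times in sgRFX6 libraries. At this depth its log2 fold change of 0.26 had an SE of 0.50 and an edgeR adjusted p of 0.887, so neither a loss nor a gain of moderate size could be seen.

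**Figure D4:**
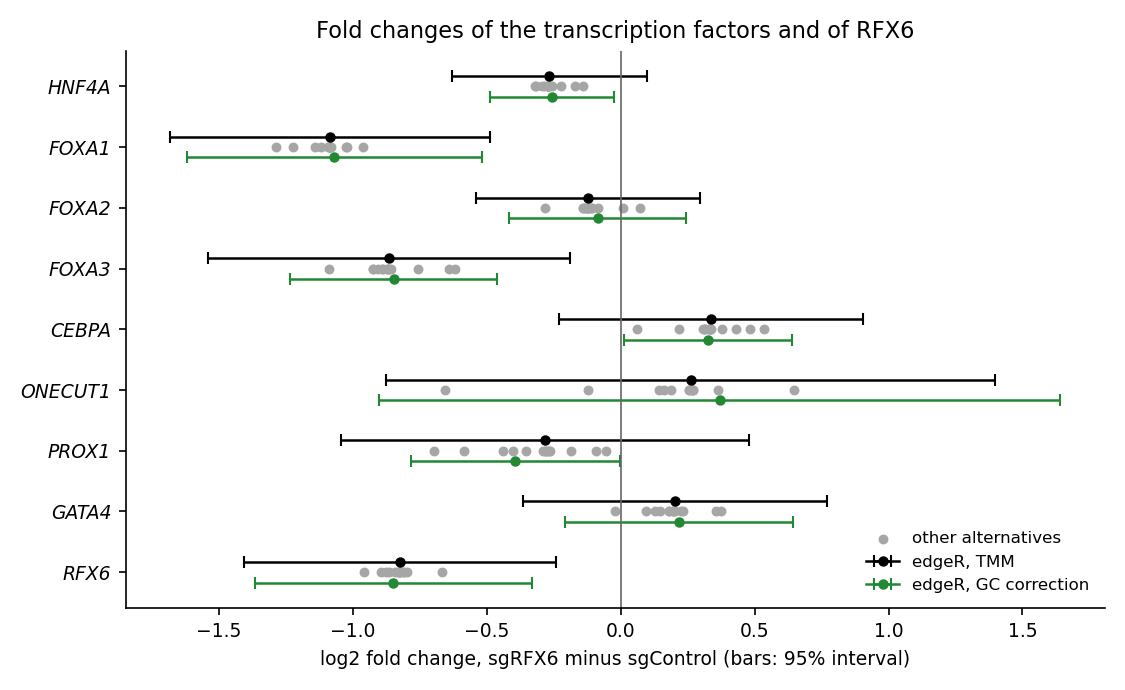
Log2 fold change (sgRFX6 minus sgControl) of the 8 transcription factors and of RFX6 in edgeR with TMM scaling (black) and with the GC correction (green), with bars for the 95% interval, and grey points for the other alternatives. The intervals of FOXA1, FOXA3 and RFX6 lie below 0 in both fits, that of ONECUT1 is the widest, and narrower intervals are seen for PROX1 and CEBPA with the correction.

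The calls among the 8 factors are set here beside those of all tested genes. EdgeR called 0 of 8 at an adjusted p under 0.05, where 3.74% of the 12839 tested genes were called (480 genes), 1.92% higher and 1.81% lower in sgRFX6 cells. An unadjusted p under 0.05 was reached by 2 of 8, FOXA1 and FOXA3, both lower, beside 15.6% of all tested genes in either direction and 6.96% lower. Groups that did not overlap with sgRFX6 lower were found for 3 of 8 factors, beside 11.2% of all tested genes, and 0 had sgRFX6 higher, beside 12.0% (23.1% in either direction). The median log2 fold change of the 8 was -0.20, against 0.02 over all tested genes. Other tools called more: DESeq2 called FOXA1 alone (6.44% of its tested genes), the GC correction FOXA1 and FOXA3 (10.7%), the same correction with the replicate number as a block FOXA1 (6.38%), edgeR without sgRFX6 replicate 3 FOXA1 (5.52%), and limma-voom with sample quality weights FOXA1, FOXA3, CEBPA and PROX1 (31.1%). In the last fit sgRFX6 replicate 3 had a weight of 0.168 and sgControl replicate 2 a weight of 0.292, against 1.08 to 3.8 in the others.

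**Figure D5:**
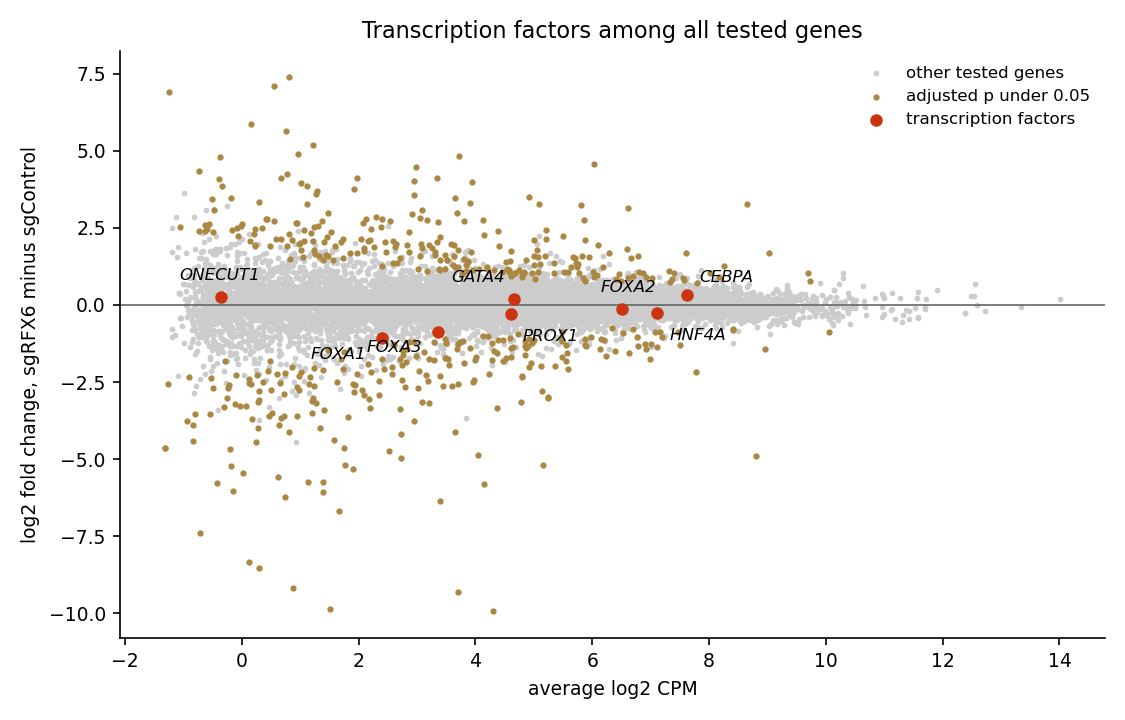
Log2 fold change (sgRFX6 minus sgControl) against average log2 CPM for the 12839 tested genes in grey, with the 480 genes at an edgeR adjusted p under 0.05 in brown and the 8 transcription factors in red. All 8 factors lie among the uncalled genes in grey, with FOXA1 and FOXA3 lowest of the 8.

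The chromosomal neighbours of the factors were read from the same fit. Over the nearest 50 tested genes, the median log2 fold change was 0.01 around HNF4A, 0.05 for FOXA1, 0.05 for FOXA2 and -0.06 for FOXA3, and it lay between -0.02 and 0.09 for the other 4 factors. The nearest tested neighbours of FOXA1 were MIPOL1 (log2 fold change 0.26, edgeR adjusted p = 0.900) and SEC23A (0.06, adjusted p = 0.945). FOXA3 lies 0.699 kb from SYMPK (-0.33, edgeR adjusted p = 0.560), and on its other side IRF2BP1 had -0.03. HNF4A lies between FITM2 (-0.24) and TTPAL (0.06), CEBPA between LRP3 (-0.04) and CEBPG (0.22), GATA4 between FAM167A (-0.01) and NEIL2 (-0.04), PROX1 between RPS6KC1 (0.00) and SMYD2 (-0.36), and ONECUT1 between FAM214A (-0.22) and WDR72 (-0.94), and edgeR called none of them. Of the neighbours on both sides of the 8 factors, 1 was called, NKX2-2, a homeobox factor of islets 1070 kb from FOXA2, with 40, 32 and 26 counts in the sgControl libraries against 0, 0 and 3 in the sgRFX6 libraries. On the other side of FOXA2, THBD had -0.11.

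The genes most like each factor across the 6 libraries are given as a description, since the libraries share their depth and GC trends. By Pearson's r of log2 CPM, FOXA1 was most like NOLC1 (0.995) and NUDT5 (0.993), FOXA3 most like MTA1 (0.995) and TMEM189 (0.994), and HNF4A most like CNTROB (0.998) and SEMA4C (0.998). PROX1 was most like TUBGCP4 (0.997) and BRMS1L (0.995), CEBPA most like ATP6V1F (0.995) and CIB1 (0.991), and GATA4 most like ZBTB9 (0.999) and CENPM (0.996). FOXA2 and ONECUT1 had fewer close companions, with UCHL1 (0.982) and MLXIP (0.976) for FOXA2 and MFN1 (0.974) and ZFP14 (0.972) for ONECUT1. The number of genes with r over 0.95 was 219 for HNF4A, 188 for FOXA3, 245 for PROX1 and 65 for FOXA1, against 6 for FOXA2 and 4 for ONECUT1.

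Other transcription factors of the liver were read from a list of 30 genes, of which 23 passed the filter on low counts. EdgeR called 1 higher and 0 lower of the 23, beside 3.74% of all tested genes. An unadjusted p under 0.05 in edgeR was reached by 5, beside 15.6%. The median of the 23 was 0.10, beside 0.02 for all tested genes. The called gene was NR1H4, the bile acid receptor, with 4, 5 and 3 counts in the sgControl libraries against 22, 12 and 22 in the sgRFX6 libraries. NR1H4 rose by 2.41 on the log2 scale (SE 0.44, edgeR adjusted p = 0.0203), but its sgControl values lie close to the 3 counts that mark the floor. NR1H4 was called in 11 of 14 alternatives and lost its call without sgControl replicate 1 (edgeR adjusted p = 0.0753), sgControl replicate 3 (0.105) or sgRFX6 replicate 1 (0.0937).

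Several other factors of that list were abundant. RXRA, the partner receptor of many nuclear receptors, averaged 239 CPM in sgControl and 244 CPM in sgRFX6 libraries, and CREB3L3, a membrane-bound factor of liver and intestine, 195 and 164 CPM. CEBPB, a paralog of CEBPA, measured 130.0 ± 23.1 and 139.2 ± 35.1 CPM (SD, n = 3). GATA6, the close paralog of GATA4, measured 53.8, 62.5 and 59.9 CPM in sgControl and 35.9, 37.5 and 34.7 CPM in sgRFX6 libraries. The GATA6 libraries were tightly grouped and did not overlap, with a log2 fold change of -0.70 (SE 0.17) and an edgeR adjusted p of 0.0624. GATA6 was called lower by DESeq2, by limma-voom, with the GC correction with and without the block, and without sgRFX6 replicate 3. HNF4G, the paralog of HNF4A known from the intestine, measured 8.10, 6.48 and 5.83 CPM in sgControl and 11.6, 9.74 and 29.8 CPM in sgRFX6 libraries, with a log2 fold change of 1.33 and an edgeR adjusted p of 0.150. HNF4G was called higher by DESeq2, by limma-voom and with the GC correction with and without the block. The highest HNF4G value was that of sgRFX6 replicate 3. GATA6 and HNF4G fall outside the rule for named genes and were chosen after their values were seen.

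Hepatocyte genes with long-known binding sites of these factors were read from a list of 30, of which 28 had a row and 18 passed the filter. EdgeR called 2 higher and 2 lower of the 18, beside 3.74% of all tested genes. An unadjusted p under 0.05 in edgeR was reached by 9, beside 15.6%. The median log2 fold change was 0.12. In all libraries, 7 of the 28 stayed at or below 3 counts. AFP, a classic gene of FOXA sites, measured 2.31, 1.58 and 2.20 CPM in sgControl and 9.98, 17.2 and 16.0 CPM in sgRFX6 libraries and rose by 2.82 on the log2 scale (SE 0.32, edgeR adjusted p = 0.00254). IGFBP1, a growth factor binding protein, measured 3.76, 3.77 and 3.80 CPM against 16.1, 16.0 and 11.8 CPM and rose by 1.95 (SE 0.25, edgeR adjusted p = 0.00367). FGB, the fibrinogen beta chain, measured 22.4, 34.4 and 22.5 CPM against 4.62, 3.39 and 6.45 CPM and fell by 2.45 (SE 0.32, edgeR adjusted p = 0.00417). CPS1, the first enzyme of the urea cycle, had 29, 43 and 43 counts against 5, 2 and 10 and fell by 2.52 (SE 0.47, edgeR adjusted p = 0.0212). AFP, IGFBP1 and FGB were called in all 15 alternatives, and CPS1 in 10 of 14. CPS1 lost its call without sgControl replicate 2 or 3 and without sgRFX6 replicate 1 or 2, with edgeR adjusted p from 0.05003 to 0.105. The called genes thus moved in both directions. ALB, at 15.7, 32.1 and 12.9 CPM against 21.6, 18.4 and 26.2 CPM, had overlapping groups and was called in limma-voom alone. DESeq2 called 3 higher and 3 lower, with APOA2 (higher) and APOB (lower) added. APOB measured 76.4, 60.6 and 62.8 CPM against 19.3, 15.9 and 46.1 CPM (log2 fold change -1.29, edgeR adjusted p = 0.116). F9 and CYP7A1 were not analysed here. Nor were the noncoding neighbours HNF4A-AS1, CEBPA-AS1, CEBPA-DT, LINC00261, PROX1-AS1 and GATA4-AS1, and since the sources used here do not say whether strand was used in counting, reads of the factors and of antisense transcripts cannot be told apart.

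Markers of other cell types were read in the same fit, where edgeR called 3.74% of all tested genes. An unadjusted p under 0.05 was reached by 15.6% of them. KRT19, a keratin of bile duct and intestinal epithelium, was the most abundant marker of the biliary and progenitor list at 736 CPM in sgControl and 592 CPM in sgRFX6 libraries, with SOX4 at 138 and 103 CPM and SPP1 at 110 and 92.9 CPM. Its 8 genes with a row summed to 850 to 1210 CPM in sgControl and 642 to 931 CPM in sgRFX6 libraries, and edgeR called 0 of 6 tested, with KRT7 and SOX4 at an unadjusted p under 0.05, both lower in every sgRFX6 library. DESeq2 and the GC correction called 1 of this list, KRT7, and limma-voom called 3. None of the 5 tested intestinal markers was called by edgeR, with 2 at an unadjusted p under 0.05, VIL1 lower and CDH17 higher in every sgRFX6 library. DESeq2 called 0 of them, the GC correction 1, CDH17, and limma-voom 3. The 5 islet markers with a row summed to 2.37 to 3.71 CPM in sgControl and 1.32 to 1.64 CPM in sgRFX6 libraries, with 1 of 3 tested genes called lower, NKX2-2, while PAX6 (1.21 and 0.479 CPM) and PDX1 (0.216 and 0.977 CPM) were not called by edgeR. Both were called with the GC correction and in limma-voom, and PDX1 also with the replicate block. NKX2-2 lost its call without sgRFX6 replicate 1 (edgeR adjusted p = 0.0539). The 6 mesenchymal markers summed to 24.9 to 33.1 CPM in sgControl and 21.3 to 56.4 CPM in sgRFX6 libraries, and 2 of 4 tested were called lower. COL1A1, a collagen chain, measured 5.45, 4.78 and 5.27 CPM against 1.09, 1.70 and 0.908 CPM and fell by 2.08 on the log2 scale (edgeR adjusted p = 0.0108), a call that was lost without sgControl replicate 3 (0.0559) and without sgRFX6 replicate 1 (0.065). COL1A2 had 40, 45 and 43 counts against 2, 2 and 4 (edgeR adjusted p = 0.00276). LUM, the most abundant of that list, averaged 20.4 and 31.6 CPM and was called neither by edgeR nor by DESeq2 or limma-voom. The endothelial markers had 1 tested gene, PECAM1 (12.1 and 16.6 CPM), which was called higher by limma-voom and not by edgeR or DESeq2, while VWF averaged 0.429 and 0.119 CPM and KDR had at most 1 count in a library. Of the leukocyte markers, CD68, a lysosomal gene of macrophages, averaged 105 and 86.4 CPM, LYZ 0.453 and 1.84 CPM and PTPRC, the pan-leukocyte marker, 0.622 and 0.582 CPM. None of these 3 was called by edgeR, and DESeq2, limma-voom and the GC correction called LYZ. The part of any of these markers in the values of the 8 factors was not tested.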

How the data were processed

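The authors deposited raw counts of reads, by gene or assembled transcript, for 3 sgControl and 3 sgRFX6 libraries, in 1 table of 16721 rows. Columns were matched to samples by name and replicate number, and the control columns, named cas, were taken as sgControl, the only control group. Per the labels, RNA was isolated with Trizol and sequenced on an Illumina instrument. The submitters' processing notes name the builds GRCh38 and hg38, and the aligner, counter, annotation and filters are not given in the sources used here. A row without a gene name, at most 9.17e-05% of a library, was left out.

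Counts were fitted with edgeR 4.0.16 in R 4.3.3 (TMM, filterByExpr with minimum count 10 and minimum total 15, quasi-likelihood test, 6 libraries, no covariate), with Benjamini-Hochberg adjustment over all 12839 tested genes. Genes with an adjusted p under 0.05 were called. The biological coefficient of variation common to all genes was 0.269. CPM used TMM-scaled library sizes, and the floor of 3 counts covers counting error only, since PCR reads are not independent molecules. FOXA ratios used CPM with a prior count of 2 and exact permutation tests. Lengths, GC content and positions were taken from GENCODE release 29 (GRCh38), and whether the authors used it is not stated (15422 row names matched by name, 261 by another symbol, 1038 not at all). The GC correction took each library's deviations from the mean of all 6 libraries. Their loess trend (span 0.3) with GC content, known for 95.1% of tested genes, was passed to edgeR as offsets.

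The factors and lists were chosen with earlier results of these data known. Genes named are the 8 factors, RFX6, every listed gene past the threshold (topped up to 3 by abundance where a list had fewer), the 2 genes most correlated with each factor (average log2 CPM of at least 1) and the nearest tested gene on each side. Others are named with their values as illustrations, chosen after those were seen. The alternatives tried were DESeq2 1.42.0, voom of limma 3.58.1 with sample quality weights, RLE factors, scaling by library size alone, no filter, a minimum count of 30, the replicate block, the GC correction with and without that block, and each library left out. Scripts were tested on simulated counts. A few listed genes are not reported here.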

Additional observations from a re-analysis of the deposited data

How the results depend on the processing

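The number of genes called between the groups was 480 in edgeR and 908 in DESeq2, 3998 in limma-voom with sample quality weights, 1375 with the GC correction and 819 with the GC correction and replicate block. It ran from 212 (without sgControl replicate 3) to 718 (without sgRFX6 replicate 3) when 1 library was left out. Of the 8 factors, 0 were called in edgeR, 1 in DESeq2, 4 in limma-voom, 2 with the GC correction, 1 with the GC correction and block, and 0 to 1 with a library left out. Of the other liver transcription factors, 1 was called in edgeR, 3 in DESeq2, 8 in limma-voom, 0 with a minimum count of 30, 3 with the GC correction, 3 with that correction and the block, and 0 to 2 with a library left out. Of the hepatocyte genes, 4 were called in edgeR, 12 in limma-voom and 7 with the GC correction. The direction turned for FOXA2 (0.073 in limma-voom, and -0.28 to 0.0095 with a library left out), ONECUT1 (-0.66 in limma-voom, and -0.12 to 0.65) and GATA4 (-0.021 without sgRFX6 replicate 2, to 0.37 without sgRFX6 replicate 3), none of them called in any setting. FOXA2 and ONECUT1 turned without sgRFX6 replicate 3. The cause was not tested. HNF4A, FOXA1, FOXA3, CEBPA and PROX1 kept their direction in all 15 alternatives. ONECUT1 could not be fitted at a minimum count of 30. With lengths of the longest transcript, sgControl levels in CPM per kilobase were 23.4 for HNF4A, 2.45 for FOXA1 and 39.0 for FOXA2. ONECUT1 had 0.302, GATA4 6.85 and FOXA3 6.55, so the order of GATA4 and FOXA3 in sgControl depended on the length used.

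The replicate numbers did not pair the libraries: deviations of libraries with the same number correlated at -0.406, 0.174 and -0.0867. With the replicate block, edgeR called 648 genes and 0 of the 8 factors.

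Low depth limits ONECUT1 (6 to 24 counts a library), NR1H4, NKX2-2, COL1A2 and PDX1. With 3 libraries a group, no exact test of a single value can go below p = 0.1.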
